A study of Mus musculus with 4 samples.

Results

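The genes described here are 49 interferon-induced, immunoproteasome and class I antigen presentation genes, taken by symbol from tables that list 23107 genes. All 49 were found, 48 by symbol and Ifi27 under its synonym Ifi27l1. RNA came from the tdTomato-positive cells of mouse mandibular molar dental follicles at postnatal day 8, sorted after enzymatic dissociation. The dental follicle is the mesenchymal sheath around a developing tooth. The groups were Ptch1 conditional knockouts, labelled Ptch1(-/-) and called cKO (libraries cKO_0 and cKO_1), and Ptch1 conditional heterozygotes, labelled Ptch1(+/-) and called cHet (libraries cHet_0 and cHet_1). Cells of both groups carried the tdTomato reporter that stands for PTHrP expression in the labels, and both had tamoxifen at postnatal day 3, so no group was free of recombination and no wild-type group is compared here. The driver of recombination, the number of animals behind each library and any pooling are not given in the sources used here. Ptch1 encodes the hedgehog receptor, which without ligand keeps the pathway silent, and the series compares cells in which both copies or 1 copy were targeted.

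Type I interferons signal through the IFNAR receptor and the kinases JAK1 and TYK2 to a complex with STAT2 and IRF9, which binds the interferon-stimulated response element (ISRE) in the promoters of antiviral genes. Interferon gamma acts on promoters at the gamma-activated site (GAS), and IRF1, itself a target, extends the response. The immunoproteasome subunits replace constitutive catalytic subunits and cut proteins into peptides, which the TAP transporter and tapasin load onto MHC class I molecules with beta-2-microglobulin. Most cells express class I genes at rest, and many of the other genes stay low until interferon or nucleic acid sensing induces them.

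Promoter windows from RefSeq on GRCm38.p6, running from 250 bases before to 50 bases after each gene start, were found for 36 of the 49 genes; those without were Dhx58, Ifi27, Iigp1, Mx1, Mx2, Nlrc5, Oas2, Parp14, Parp9, Rtp4, Tap2, Usp18 and Zbp1. Each window was searched on both strands for the ISRE core, which is GAAA, any bases NN and GAAA (TTTC, NN and TTTC on the other strand), and for the GAS letters TTCNNNGAA, which are their own reverse complement. The ISRE core lay in a window of 18 of the 36 members, 50% of them, against 3.99% of the 27025 genes with a window. The GAS letters lay in 10 of the 36, or 27.8%, against 9.55% of all genes. A GAS match overlapped an ISRE match in the windows of Bst2 and Ifitm3. All 5 interferon-inducible GTPase genes with a window held the ISRE core, as did 9 of 16 antiviral effector genes, 2 of 3 sensor and adaptor genes, 1 of 4 transcription factor genes, 1 of 5 class I presentation genes and 0 of 3 immunoproteasome genes. The stretches below show these letters in members whose values are described later, with the ISRE core in capitals and flanks in lower case, 5′ to 3′ on the gene's strand.
Gbp2 (chr3:142620584-142620633, plus strand): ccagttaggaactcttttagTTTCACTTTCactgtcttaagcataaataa
Gbp3 (chr3:142559979-142560034, plus strand): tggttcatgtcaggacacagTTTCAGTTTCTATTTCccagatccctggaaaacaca
Gbp7 (chr3:142530263-142530312, plus strand): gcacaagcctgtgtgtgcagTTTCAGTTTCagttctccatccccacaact
Igtp (chr11:58199502-58199551, plus strand): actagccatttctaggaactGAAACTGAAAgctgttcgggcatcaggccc
Irgm1 (chr11:48871421-48871470, minus strand): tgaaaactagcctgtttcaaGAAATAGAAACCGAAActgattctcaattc
Ifit1 (chr19:34640765-34640833, plus strand): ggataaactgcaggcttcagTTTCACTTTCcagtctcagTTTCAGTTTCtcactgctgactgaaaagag
Ifit3 (chr19:34583353-34583436, plus strand): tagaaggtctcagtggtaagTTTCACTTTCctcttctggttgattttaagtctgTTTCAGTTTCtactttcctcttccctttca
Isg15 (chr4:156200855-156200916, minus strand): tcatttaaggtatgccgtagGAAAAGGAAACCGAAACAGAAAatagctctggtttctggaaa
Bst2 (chr8:71537567-71537622, minus strand): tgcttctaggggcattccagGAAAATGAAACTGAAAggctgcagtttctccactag
Stat2 (chr10:128270256-128270305, plus strand): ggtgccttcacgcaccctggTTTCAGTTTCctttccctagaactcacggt
B2m (chr2:122147528-122147577, plus strand): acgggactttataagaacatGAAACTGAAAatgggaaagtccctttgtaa
In Gbp3, Irgm1, Isg15 and Bst2 consecutive copies overlapped, so that 1 run of capitals holds several matches. Ifit1 and Ifit3, both on chromosome 19, each held 2 separate copies.

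The GAS letters are shown in capitals for the interferon regulatory factor gene Irf1 and the immunoproteasome gene Psmb8. They were the only members of the transcription factor and immunoproteasome groups with these letters in a window. Neither held an ISRE core there.
Irf1 (chr11:53769904-53769952, plus strand): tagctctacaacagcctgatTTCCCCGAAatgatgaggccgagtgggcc
Psmb8 (chr17:34198078-34198126, plus strand): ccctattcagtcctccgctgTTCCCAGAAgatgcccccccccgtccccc
A match is a description of letters in these windows and not of binding.

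The libraries were similar in scaled total, 69361760 to 71228342, and their smallest common step between values corresponds to 62304087 to 85660462 reads on genes. They differed in complexity: an FPKM of 1 or more was reached by 12192 and 11355 genes in cKO_0 and cKO_1, and by 12360 and 9850 genes in cHet_0 and cHet_1. Values below are scaled counts, the authors' counts per gene after division by a factor for each library, unless FPKM is named. Differences are cKO minus cHet in log2(scaled count + 3), with limma's standard error (SE) and 2 libraries a group. With 2 libraries against 2 an exact permutation test cannot give a p under 0.333, so no such p is given for single genes. As checks of the labels, Ptch1 stood at 22420.0 and 23341 in cKO and at 12867 and 5438 in cHet, and the hedgehog target Hhip at 175453 and 160516 in cKO and at 62357 and 60651 in cHet. In FPKM the groups overlapped for Hhip, at 273 and 84.1 in cKO and at 101 and 25.5 in cHet. Gli1, a further check, stood at 6388 and 6955 in cKO and at 4132 and 3350 in cHet. For Ptch1 and Gli1 the groups did not overlap in either unit. The gene-level value of Ptch1 does not show whether an exon was deleted. Dental follicle markers took 8.04% and 7.74% of the scaled counts in cKO and 11.2% and 12.1% in cHet, and 0 of the 10 on that list were at 0 in any library. Dental epithelium markers, genes of another tissue than the labelled one, took 1.41% and 3.87% in cKO and 0.846% and 2.10% in cHet. The enamel matrix genes Ambn and Amelx made up most of that sum in cKO_0, at 376029 and 499696. Of the 9 epithelium markers 4 had a higher and 5 a lower mean log2 value in cKO, and the epithelial surface gene Epcam was apart with cKO lower, at 621 and 1002 in cKO and at 4828 and 2448 in cHet.

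Most of the tested members had higher values in cKO than in cHet. Of the 49 members, 42 passed the filter, which asks for 10 or more scaled counts in 2 or more libraries, 0 of them with such values in 1 group only. Of the 42, 34 had a higher and 8 a lower mean log2 value in cKO, against 56.3% and 43.7% of the 14297 genes tested, and the median difference was 0.80 against 0.12 over all genes. In 23 of the 42, both cKO libraries lay above both cHet libraries, and in 0 both lay below; over all genes tested these shares were 18% and 14.2%. In FPKM the counts were 18 above and 0 below, against 11.5% and 8.73%. Summed, the members took 0.148% and 0.169% of all scaled counts in cKO_0 and cKO_1, against 0.110% and 0.0963% in cHet_0 and cHet_1. In a bulk sample a change in the share of a cell type and a change in RNA per cell cannot be told apart.

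No member passed the threshold. With Benjamini-Hochberg adjustment over all genes, 0 of 42 members passed an adjusted p under 0.05 with limma in either direction, as did 0 of all genes (0% in each direction), and each member's adjusted p was 0.913 or more. At an unadjusted p under 0.05 there was 1 member higher, Tapbp, and 0 lower, against 1.54% and 1.49% of all genes. The median SE was 1.61 among the tested members and 0.742 among all genes tested. The cHet pair differed most often: of 35 members with at least 100 in cHet_0, 14 were more than 10 times lower in cHet_1, or 40%, against 18.7% of all genes with at least 100 in cHet_0. The reverse gap, cHet_0 under cHet_1, was found in 2 of 24 members, or 8.33%, against 2.05% of all genes. In the cKO pair the gap was found in 1 of 38 members for cKO_1 under cKO_0, against 4.78% of all genes, and in 1 of 40 for cKO_0 under cKO_1, against 6.01%.

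**Figure D1:**
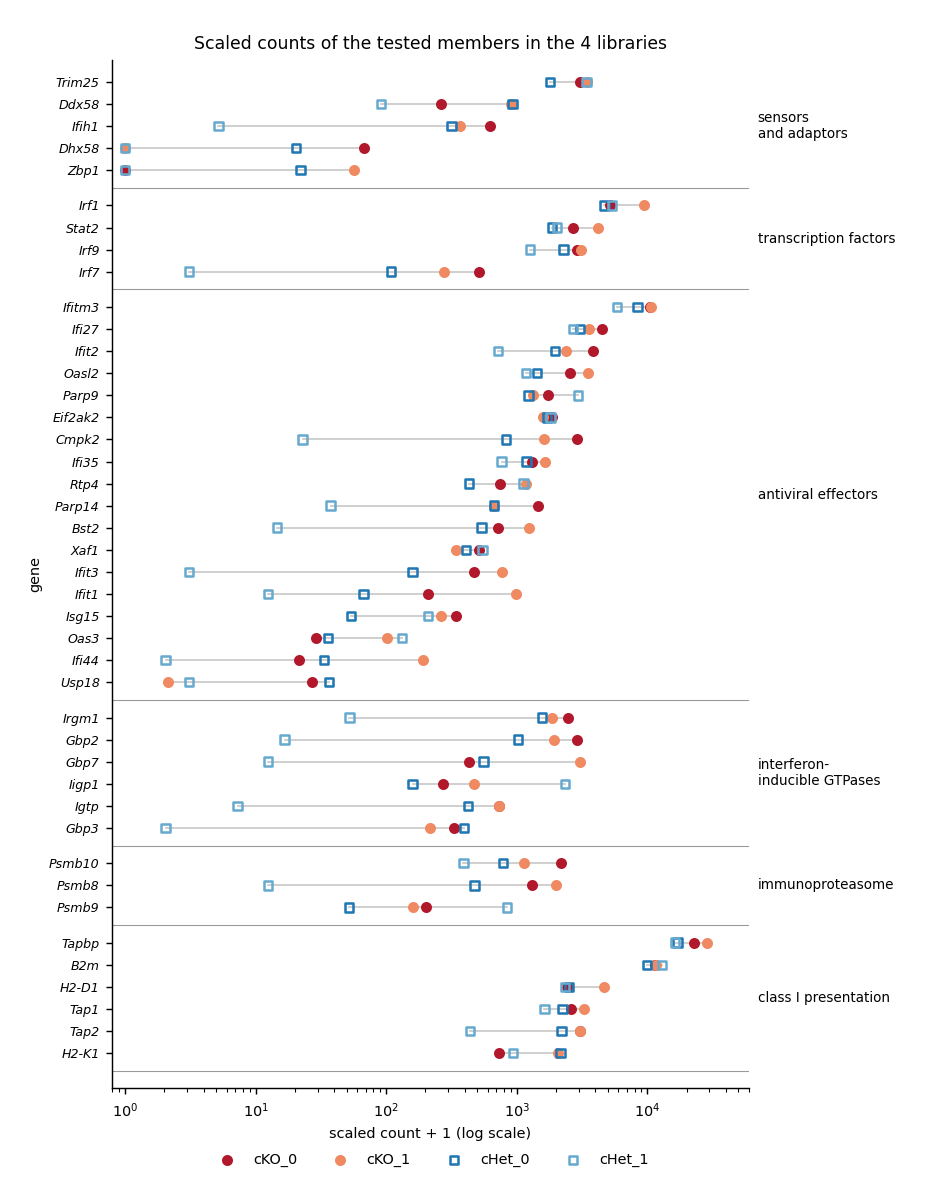
Scaled count plus 1 on a log axis for each of the 42 tested members, grouped by role, with filled circles for cKO_0 and cKO_1 and open squares for cHet_0 and cHet_1. In 13 members, among them Gbp2, Psmb8 and Cmpk2, cHet_1 was more than 10 times lower than each of the other 3 libraries.

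With cHet_0 alone as the cHet value, the median difference was smaller and most members kept their direction, but the sign turned for 10 of the 42. Ddx58, Dhx58, Zbp1 and Gbp3 turned lower, and the others of the 10 turned higher. Some single differences grew, such as that of Isg15 from 1.48 to 2.44. The median difference of the 42 members was 0.59, against -0.05 over all genes tested, and 36 of the 42 had a higher mean log2 value in cKO, against 46.2% of all genes. In 30 of the 42 both cKO libraries lay above cHet_0 and in 4 both lay below it (Ddx58, H2-K1, Gbp3 and Usp18), against 27.7% and 29% of all genes. In that fit, which assumes that cHet_0 varies as the cKO libraries do, limma called 0 members and 0% of all genes. At an unadjusted p under 0.05 it had 0 members in either direction, against 0.846% of all genes higher and 0.671% lower. With cHet_1 alone as the cHet value it called 10 of the 42 higher and 0 lower, against 7.42% and 0.546% of all genes, and the median difference was 1.29, with 33 members higher in mean log2 value against 57.4% of all genes. Those 10 were Gbp2, Psmb8, Cmpk2, Ifit3, Gbp7, Igtp, Bst2, Irgm1, Parp14 and Tap2. Without cKO_0 limma called 0 members, against 0.049% of all genes higher and 0.035% lower, and without cKO_1 it called 0, against 0.0699% and 0.224%. In log2(FPKM + 1) it called 0, against 0.0244% and 0.0326%.

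**Figure D2:**
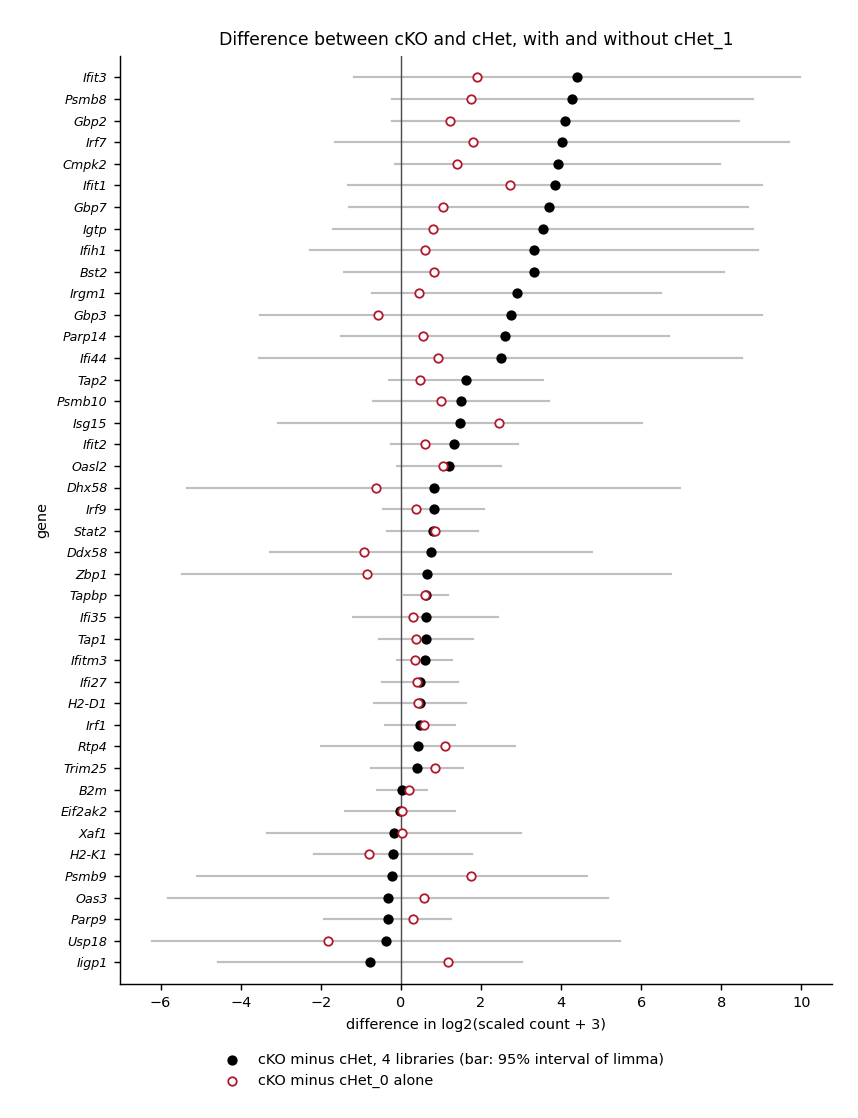
Difference between cKO and cHet in log2(scaled count + 3) for each tested member, with all 4 libraries (black, with limma's 95% interval) and with cHet_0 alone as the cHet value (open red). The interval excludes 0 for Tapbp alone, and the differences over 2 with 4 libraries are smaller with cHet_0 alone.

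**Figure D3:**
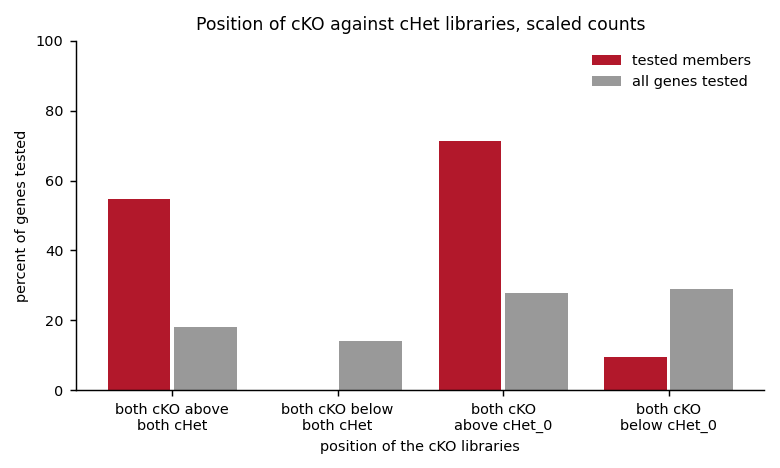
Percent of the 42 tested members (red) and of all 14297 genes tested (grey) in which both cKO libraries lay above or below both cHet libraries, and above or below cHet_0. Members were at 54.8% and 0% against both cHet libraries, and at 71.4% and 9.52% against cHet_0.

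The share of members with higher values did not rest on low-count genes alone. Among members averaging 3000 scaled counts or more, 5 of 5 had a higher mean log2 value in cKO, with a median difference of 0.48, against 50.2% and 0.00 for all genes of that abundance. Between 1000 and 3000 it was 14 of 17, with a median of 0.82, against 54% and 0.08. Between 300 and 1000 it was 9 of 12, with a median of 2.96, against 61.7% and 0.49. Under 300 it was 6 of 8, with a median of 1.15, against 65.6% and 0.69.

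Among the sensors and their adaptor, 5 of 5 had a higher mean log2 value in cKO, against 56.3% of all genes tested. Ifih1 alone was apart in scaled counts and Trim25 alone in FPKM, against 18% and 11.5% of all genes with cKO higher. With cHet_0 alone 2 of the 5 were higher, Ifih1 and Trim25, and the median difference, 0.74 with 4 libraries, was -0.63. Ddx58 was then at -0.91, Dhx58 at -0.63 and Zbp1 at -0.86. Ifih1, which encodes the RNA sensor MDA5, stood at 626 and 365 in cKO and at 317 and 4.19 in cHet, a difference of 3.33 (SE 2.43) and of 0.59 with cHet_0 alone. Ddx58, which encodes the RNA sensor RIG-I, stood at 263 and 908 in cKO and at 925 and 90.0 in cHet, so that the groups overlapped and both cKO values lay under cHet_0. Trim25, the ubiquitin ligase of the RIG-I pathway, stood at 3044 and 3473 in cKO and at 1792 and 3436 in cHet (0.39, SE 0.50). In scaled counts the groups overlapped for Trim25, with cHet_0 the single low library. In FPKM they were apart, at 7.76 and 5.03 in cKO and at 4.61 and 4.54 in cHet. Dhx58, the RIG-I-like gene for LGP2, was at 66.8 and 0 in cKO and at 19.4 and 0 in cHet, and Zbp1, a sensor of Z-form nucleic acid, at 0 and 55.6 in cKO and at 21.1 and 0 in cHet. For each of these last genes, 1 library of each group was listed at 0.

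Of the transcription factor genes, 4 of the 5 were tested, and 4 had a higher mean log2 value in cKO, against 56.3% of all genes tested. In scaled counts 3 were apart with cKO higher, against 18% of all genes. Stat2, the STAT of the type I interferon complex, stood at 2692 and 4230.3 in cKO and at 1865 and 2035 in cHet, a difference of 0.79 (SE 0.49). The difference of Stat2 was 0.85 with cHet_0 alone, 0.73 with cHet_1 alone, 1.12 without cKO_0 and 0.47 without cKO_1. Irf9, the DNA-binding partner of STAT2, stood at 2883 and 3103 in cKO and at 2287 and 1261 in cHet (0.82, SE 0.55; 0.39 with cHet_0 alone). For Irf9 the groups did not overlap in scaled counts but did in FPKM, at 18.0 and 12.3 in cKO and 14.5 and 4.44 in cHet. Irf7, which drives a second wave of interferon expression, was at 518 and 279 in cKO and at 108 and 2.09 in cHet (4.01, SE 2.46; 1.79 with cHet_0 alone). Irf1 stood at 5149.8 and 9389.9 in cKO and at 4699 and 5349.7 in cHet (0.47, SE 0.38), so that only cKO_1 stood clear of the rest. In FPKM the groups were apart for Irf1, at 35.8 and 47.2 in cKO and at 32.5 and 26.3 in cHet. Nlrc5, the transactivator of class I genes, was listed at 0 in all 4 libraries.

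Antiviral effector genes were the largest group, 24 members of which 18 were tested. Of these, 13 had a higher and 5 a lower mean log2 value in cKO, against 56.3% and 43.7% of all genes tested. In scaled counts 11 were apart with cKO higher and 0 with cKO lower, against 18% and 14.2% of all genes. The median difference was 0.91 (0.60 with cHet_0 alone). Ifitm3, a membrane protein that blocks viral entry, had the highest mean FPKM of all 49 members, 315 and 348 in cKO and 246 and 182 in cHet. In scaled counts Ifitm3 stood at 10565 and 10699 in cKO and at 8403 and 5889 in cHet, a difference of 0.60 (SE 0.30; 0.34 with cHet_0 alone). The cKO values lay close together, and the groups were apart in both units.

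Oasl2, an oligoadenylate synthetase-like protein, stood at 2558 and 3488 in cKO and at 1433 and 1184 in cHet, a difference of 1.2 (SE 0.56). The difference of Oasl2 lay between 0.97 and 1.42 whichever library was left out. Cmpk2, a mitochondrial nucleotide kinase gene that lies beside Rsad2 on chromosome 12, stood at 2905 and 1627 in cKO and at 829 and 22 in cHet (3.92, SE 1.76; 1.39 with cHet_0 alone). Its neighbour Rsad2, which encodes viperin, was at 0 and 2.27 in cKO and at 126 and 2.09 in cHet, so that cHet_0 alone held more than a few counts, and it did not pass the filter. Ifit2, which binds foreign RNA, stood at 3820.3 and 2367 in cKO and at 1968 and 720.0 in cHet (1.33, SE 0.69; 0.61 with cHet_0 alone). Ifi27, a mitochondrial protein gene, stood at 4515 and 3557 in cKO and at 3055 and 2709 in cHet (0.48, SE 0.41; 0.39 with cHet_0 alone).

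The next genes, named after their values were seen, are Ifit1, Ifit3, Isg15 and Bst2, which hold an ISRE core shown above, and Usp18. Ifit3 stood at 466 and 776 in cKO and at 159 and 2.09 in cHet (4.40, SE 2.42). Ifit1 was at 207 and 985 in cKO and at 66.4 and 11.5 in cHet (3.84, SE 2.25). With cHet_0 alone the differences were 1.90 for Ifit3 and 2.71 for Ifit1, and cHet_1 was the lowest library for both. Ifit3 has a near-identical copy, Ifit3b, and the sources used here do not say how shared reads were counted. Isg15, a ubiquitin-like modifier, stood at 344 and 261 in cKO and at 52.6 and 208 in cHet (1.48, SE 1.97; 2.44 with cHet_0 alone and 0.52 with cHet_1 alone). Here cHet_0 and not cHet_1 was the lowest library. Its removing enzyme, Usp18, was at 25.9 and 1.13 in cKO and at 35.6 and 2.09 in cHet, low throughout. Bst2, which encodes tetherin, stood at 713 and 1248 in cKO and at 535 and 13.6 in cHet (3.32, SE 2.06; 0.81 with cHet_0 alone).

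Other antiviral members, also named after their values were seen, mostly did not separate the groups. Eif2ak2, the double-stranded RNA kinase PKR, was nearly level at 1861 and 1603 in cKO and at 1700.4 and 1817 in cHet, a difference of -0.03 (SE 0.60, 95% interval -1.40 to 1.35). Parp9 was highest in cHet_1, at 2953 against 1236 in cHet_0, with 1729 and 1329.9 in cKO. Parp14, another ADP-ribosyltransferase gene of the response, was lowest in cHet_1, at 36.6 against 671 in cHet_0, with 1456 and 673 in cKO. The neighbours Parp9 and Parp14 on chromosome 16 thus differed from each other in the cHet pair. Oas3 lay between 28.0 and 131 in the 4 libraries and overlapped between groups. The rest of the tested genes of the group, Ifi35, Ifi44, Rtp4 and Xaf1, had differences from -0.17 (Xaf1) to 2.49 (Ifi44). Of the members that did not pass the filter, Oas1a and Oasl1 were listed at 0 in all libraries, Oas2 was at 192 in cKO_0 and at most 0.810 elsewhere, Mx1 at 134 in cKO_1 and at most 4.86 elsewhere, and Mx2 at 88.3 in cHet_0 and 0 elsewhere.

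All 6 interferon-inducible GTPase genes were tested, and 5 had a higher mean log2 value in cKO, against 56.3% of all genes tested. Gbp2, a guanylate-binding protein gene of chromosome 3 that acts on pathogen vacuoles, stood at 2907 and 1935 in cKO and at 1020.3 and 15.7 in cHet (4.10, SE 1.88; 1.21 with cHet_0 alone). Igtp stood at 736 and 729.6 in cKO and at 422 and 6.28 in cHet (3.55, SE 2.28; 0.79 with cHet_0 alone), and Irgm1, an immunity-related GTPase of chromosome 11, at 2489.8 and 1862 in cKO and at 1564 and 51.3 in cHet (2.89, SE 1.57; 0.46 with cHet_0 alone). These 3 genes were apart between groups in scaled counts and overlapped in FPKM. Gbp3 and Gbp7, which flank each other beside Gbp2, overlapped between groups: Gbp3 was at 329.7 and 217 in cKO and at 396 and 1.05 in cHet, and Gbp7 at 432 and 3079 in cKO and at 555 and 11.5 in cHet. Iigp1 on chromosome 18 differed from the others in that cHet_1 was highest, with 274 and 472 in cKO and 159 and 2354 in cHet (-0.77, SE 1.65; 1.17 with cHet_0 alone).

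The 3 immunoproteasome genes gave the largest differences from cHet_0 of any role group by median, 1.76. Both cKO libraries lay above cHet_0 in 3 of 3, against 27.7% of all genes tested. Psmb8, the chymotrypsin-like subunit, stood at 1303 and 1998 in cKO and at 475 and 11.5 in cHet (4.28, SE 1.96; 1.76 with cHet_0 alone). Psmb10 stood at 2190.3 and 1143 in cKO and at 784 and 390.3 in cHet (1.51, SE 0.95; 1.01 with cHet_0 alone), so that the groups were apart without a library near 0. Psmb9 stood at 201 and 160.0 in cKO and at 51.0 and 839 in cHet (-0.22, SE 2.11), which was 1.76 with cHet_0 alone and -2.21 with cHet_1 alone. Of the 14 constitutive subunit genes of the same core particle, 5 had a higher and 9 a lower mean log2 value in cKO. Over all genes tested these shares were 56.3% and 43.7%. The differences of the 14 lay within -0.27 to 0.43, with a median of -0.07. Psmb6, the one with the highest mean, stood at 8948 and 8336 in cKO and at 8723 and 8448 in cHet. In scaled counts 2 of the 14 were apart with cKO higher and 1 with cKO lower, against 18% and 14.2% of all genes tested. The lists were not tested against each other.

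Class I presentation genes were among the most abundant members and had small differences, with a median of 0.54 (0.40 with cHet_0 alone). In mean log2 value 5 of 6 were higher in cKO, against 56.3% of all genes tested. Tapbp, which encodes tapasin, stood at 23023 and 28761 in cKO and at 17072 and 16307 in cHet, a difference of 0.63 (SE 0.24, unadjusted limma p 0.0317, adjusted p 0.913). It had the lowest unadjusted p of the 42, and the difference of Tapbp lay between 0.46 and 0.79 whichever library was left out. Tap1, a subunit of the peptide transporter, stood at 2586 and 3307 in cKO and at 2236 and 1627 in cHet (0.62, SE 0.51; 0.39 with cHet_0 alone). Tap2, the other subunit, stood at 3046 and 3035 in cKO and at 2202 and 437 in cHet (1.63, SE 0.83; 0.46 with cHet_0 alone). The groups were apart in scaled counts and FPKM for Tapbp, Tap1 and Tap2.

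The class I chain genes themselves did not separate the groups. B2m, the shared light chain, stood at 11502 and 11669.6 in cKO and at 9989 and 12986 in cHet, a difference of 0.02 (SE 0.27, 95% interval -0.59 to 0.64) that was -0.08 with median-of-ratios scaling. H2-K1 stood at 738 and 2089 in cKO and at 2166 and 932 in cHet (-0.19, SE 0.86), so that each group held a high and a low library. H2-D1 stood at 2424 and 4698 in cKO and at 2521.5 and 2340.0 in cHet (0.47, SE 0.50), with cKO_1 alone above the rest. Class I heavy chain genes are similar in sequence to each other and reads may have been split among them.

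Of the 49 genes, 8 lie on chromosome 17, and 7 of these in the major histocompatibility region, from Tapbp (33915899 to 33929292) over H2-K1, Psmb9, Tap1, Psmb8 and Tap2 to H2-D1 (35262730 to 35267499; GRCm38). Psmb9 (34181987 to 34187764, minus strand) and Tap1 (34187553 to 34197225, plus strand) are head to head and overlap at their starts. They nevertheless differed in which cHet library was higher, Psmb9 in cHet_1 and Tap1 in cHet_0. Psmb8 (34197721 to 34201454) lies next to Tap1 and was nearly missing from cHet_1, where Tap1 was at 1627. No source used here says if reads were counted by strand, which also bears on Irf7, Rtp4, Parp9, B2m and Nlrc5, each overlapped by a gene on the other strand that the tables list. On the same strand, Tapbp is overlapped by Zbtb22, Irf9 by Rnf31 and Igtp by Irgm2, all of them listed. How reads shared by such pairs were counted is not given either.

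Members with and without the ISRE core differed in how low they were in cHet_1 more than in how cKO compared with cHet_0. Of the 33 tested members with a promoter window, 16 held the core. Their median difference was 2.82 with 4 libraries and 0.69 with cHet_0 alone. For the 17 without it the medians were 0.63 and 0.61. In 9 of the 16 and in 4 of the 17, cHet_1 was more than 10 times lower than cHet_0. In 11 of the 16 and 13 of the 17 both cKO libraries lay above cHet_0, against 27.7% of all genes tested. The members with the core mostly had lower mean scaled counts than those without, and the sets were not matched in abundance. With 4 libraries, the median difference of members also varied with abundance. It was 2.96 for members averaging 300 to under 1000 scaled counts and 0.48 for those at 3000 and over. No test was made of these counts.

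Other genes of the interferon pathway were described from lists chosen alongside the members. Of 14 ligand genes, the 12 interferon genes were listed at 0 in all 4 libraries, including Ifnb1 and Ifng. The cytokine genes Il15 and Tnf on that list were at 0 and 195, and at 0 and 285, in cKO, and at 31.6 and 0, and at 0 and 1.05, in cHet. Of 17 receptor and JAK-STAT genes, all tested, 8 had a higher and 9 a lower mean log2 value in cKO, against 56.3% and 43.7% of all genes. The median was -0.07, and limma called 0 at an adjusted p under 0.05. Socs3 and Jak1, the 2 genes of this list with the highest mean, overlapped between groups, with differences of 0.02 (SE 0.40) and -0.15 (SE 0.27). At an unadjusted limma p under 0.05 there was 1 gene, with cKO higher, against 1.54% of all genes. That gene was Socs1, an inhibitor of JAK kinases that interferon induces, at 5161 and 8219 in cKO and at 3713 and 2848 in cHet (1.0, SE 0.39; 0.81 with cHet_0 alone). Jak2, the kinase of the interferon gamma receptor, stood at 3113 and 3010.4 in cKO and at 4001 and 7568 in cHet (-0.85, SE 0.43; -0.39 with cHet_0 alone), apart with cKO lower in scaled counts and overlapping in FPKM.

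Among 47 further interferon-induced genes, 33 were tested, 24 had a higher and 9 a lower mean log2 value in cKO, and 13 were apart with cKO higher and 2 with cKO lower. Over all genes tested, 56.3% were higher and 43.7% lower, and 18% were apart with cKO higher and 14.2% with cKO lower. The same shares stand beside the lists that follow in this paragraph. The median difference was 0.81, and 0.32 with cHet_0 alone. By limma 0 passed adjusted over all genes and 4 were under 0.05 unadjusted, all higher, against 1.54% of all genes higher and 1.49% lower. Lgals3bp, a secreted glycoprotein gene, stood at 9285 and 9645 in cKO and at 4889 and 2370.3 in cHet (1.47, SE 0.41, unadjusted limma p 0.00674, adjusted p 0.913; 0.95 with cHet_0 alone). Parp10, an ADP-ribosyltransferase gene, stood at 1506 and 1464 in cKO and at 143 and 9.42 in cHet (5.13, SE 1.94; 3.35 with cHet_0 alone). Ifi47, an interferon-inducible GTPase gene, stood at 3636 and 4894 in cKO and at 1381 and 2178 in cHet (1.28, SE 0.49; 1.61 with cHet_0 alone). These were the 3 genes of the list with the lowest unadjusted limma p, and each lay higher in both cKO libraries. Ifitm2 and Shisa5, the 2 with the highest mean, overlapped between groups, with differences of 0.25 (SE 0.26) and 0.16 (SE 0.31). Of 13 further class I presentation genes, 11 were tested, 7 higher and 4 lower, with a median of 0.52 and of -0.08 with cHet_0 alone, and 2 were apart with cKO higher and 3 with cKO lower. Psme2, a proteasome activator subunit gene, stood at 5457 and 5246 in cKO and at 3309 and 4418 in cHet (0.48, SE 0.36), and the class I gene H2-Q4 at 153 and 347 in cKO and at 93.9 and 41.9 in cHet (1.83, SE 2.13), both apart in FPKM too. H2-T23 and Erap1, with the lowest unadjusted limma p of that list, overlapped between groups, with differences of 3.2 and 3.3. With cHet_0 alone these were 0.36 and 0.16. The peptide-loading chaperone genes Calr, Canx and Pdia3 were apart with cKO lower in scaled counts, with differences of -0.15, -0.20 and -0.29, and overlapped in FPKM. Of 12 nucleic acid sensing genes, 9 were higher and 3 lower, with a median of 0.62 and of 0.05 with cHet_0 alone, and 4 were apart with cKO higher and 1 with cKO lower. That 1 was Tmem173, which encodes the DNA-sensing adaptor STING, at 224 and 11.3 in cKO and at 407 and 409 in cHet (-2.85, SE 2.23). The difference of Tmem173 was -0.86 without cKO_1, the library in which it was lowest.

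Genes of other cells differed between the libraries of a group. The class II, leukocyte and endothelial sums were each higher in cKO_1 than in cKO_0 and in cHet_1 than in cHet_0. Not every gene followed the sum of its list. From cHet_0 to cHet_1, the leukocyte marker Csf1r went from 228 to 8.37. The endothelial marker Tek went from 240 to 2.09 and the class II gene H2-DMa from 327 to 0. In cHet_1, Cd74, Lyz2 and Kdr alone held 11093, 4385 and 4054 of the class II, leukocyte and endothelial sums. Class II presentation genes, which mark antigen-presenting cells, summed to 1687 and 5499 in cKO and to 1625 and 22619 in cHet; Cd74 alone stood at 465 and 3265 in cKO and at 123 and 11093 in cHet. Library cHet_1, lowest or tied for lowest in 28 of the 42 tested members, had the highest class II sum. The 18 leukocyte markers summed to 2129 and 16190 in cKO and to 2231 and 8934 in cHet, with 4 and 2 of 18 at 0 in cKO and 4 and 5 of 18 at 0 in cHet. The T cell gene Cd3e and the progenitor gene Flt3 were at 0 in all 4. Of the 15 tested 10 had a higher and 5 a lower mean log2 value in cKO, against 56.3% and 43.7% of all genes. Of the 15, 3 (Ptprc, Adgre1 and Cd52) passed the filter through 1 group only, which by itself sets their groups apart. The pan-leukocyte gene Ptprc stood at 62.5 and 76.0 in cKO and at 0.810 and 0 in cHet, apart with cKO higher. The macrophage gene Adgre1 stood at 0 and 2.27 in cKO and at 36.4 and 203 in cHet, apart with cKO lower. Lyz2, a myeloid lysozyme gene, was the highest marker at 853 and 6546 in cKO and at 531 and 4385 in cHet. The 12 endothelial markers summed to 4066 and 19948 in cKO and to 2922 and 7076 in cHet, with 2 and 1 of 12 at 0 in cKO and 1 and 1 of 12 in cHet. The defining endothelial gene Pecam1 was at 300 and 1278 in cKO and at 0 and 5.23 in cHet, the largest difference of that list. Pecam1 and Cldn5, 2 of the 10 tested, passed the filter through 1 group only, which by itself sets their groups apart. Of the 10 tested, 9 had a higher and 1 a lower mean log2 value in cKO, against 56.3% and 43.7% of all genes. The one lower was Kdr, a receptor gene with the highest mean of the list, at 1944 and 3145 in cKO and at 1900.4 and 4054 in cHet, and Erg was at 0 in cKO and at 126 and 0 in cHet. Their part in the values of the members was not tested.

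**Figure D4:**
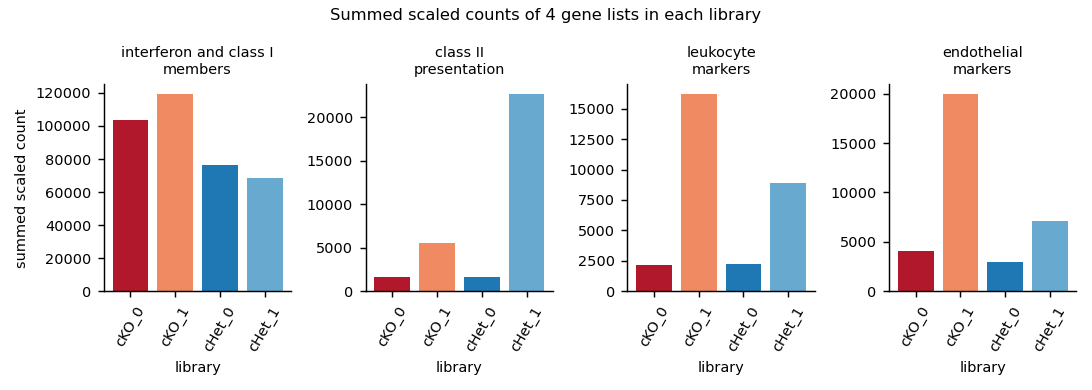
Summed scaled counts of the 49 members and of the class II, leukocyte and endothelial lists in each library, each panel with its own axis from 0. The sum of the members was higher in both cKO libraries, that of the class II genes was highest in cHet_1, and those of the leukocyte and endothelial markers were highest in cKO_1.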

How the data were processed

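Per the labels' protocols, RNA was extracted with PicoPure, reverse transcribed and amplified with SMART-Seq v4, and made into Nextera XT libraries. The submitters' processing notes name the build mm10 and, without roles, TopHat2 2.0.13 and Bowtie2 2.2.1, beside FastQC, HTSeq, Cufflinks, Cuffdiff and DESeq2. The main values are of the unit signal: the authors deposited them as scaled counts, which are counts per gene over a library factor whose origin no source used here gives. FPKM values, which the authors deposited relative to transcript length and library size, served as an alternative. Another 16 columns of 4 tables have names found in no label and stayed out. Table columns are numbered from 0 and titles from 1, so each column was tied to its group alone. No source ties the libraries of a group to separate animals: the p-values describe the spread among libraries, which may be technical.

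Limma 3.58.1 in R 4.3.3 (empirical Bayes with trend) was run on log2(scaled count + 3), with group as its term, over the 14297 genes that reached 10 scaled counts in 2 or more libraries. Tests were two-sided, with Benjamini-Hochberg adjustment over all genes and a threshold of 0.05. Such differences understate the change of low genes. With a library left out, the same genes were kept. The fit was tested on simulated data. Between 96.5% and 99.0% of a library's values were whole multiples of its step within 0.1, too few for a count test. Alternatives were other pseudocounts, filters, scaling, library weights, FPKM, a replicate block and each library left out. The members, lists and tests were chosen with earlier results of these data known. Values in every library are given for up to 4 members of each role with the highest mean and up to 4 with the lowest p. Of the other lists, some but not all of the 3 genes with the lowest p and of the 2 with the highest mean have such values. They are also given for genes chosen after their values were seen (those so named, with Dhx58, Zbp1, Gbp3, Tnf, Canx, H2-Q4, Tmem173, Adgre1, Ptprc, Pecam1, Erg, Epcam, H2-K1 and the members that did not pass the filter). Csf1r, Tek and H2-DMa, given for cHet only, were chosen in the same way. Gene positions are from GENCODE vM21 and promoters from RefSeq, both on GRCm38 (mm10) and 1-based.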

Additional observations from a re-analysis of the deposited data

How the results depend on the processing

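The counts of 0 members called in each direction held under pseudocounts of 1 and 10, no filter, a mean scaled count of at least 100, median-of-ratios scaling, library weights, both FPKM settings and the replicate block. Among all genes, log2(FPKM + 1) called 3 higher and 4 lower and log2(FPKM + 0.1) called 1 and 1. The median difference of the tested members lay between 0.66 and 0.84 in those settings and between 0.59 and 1.29 with a library left out, and the number with higher values between 30 and 36. With a library left out, between 0 and 12 members were called higher and 0 lower, and between 0 and 1513 genes were called higher and between 0 and 205 lower. The upper ends come from leaving out cHet_0 and applying the filter again to the 3 libraries left, an alternative chosen after seeing the data; with the same genes kept the counts were 10, 1061 and 78. Without cHet_1, 0 genes were called with the same genes kept, and 17 higher and 15 lower with the filter applied again. Without cKO_0 it was 7 and 5, and without cKO_1 10 and 32. The cause was not tested.

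Median-of-ratios scaling gave a median over all genes of 0.02, against 0.12 as deposited. The sign turned with it for B2m (-0.080), with log2(FPKM + 1) for Ddx58 (-0.023), Eif2ak2 (0.027) and Xaf1 (5.7e-05), and with log2(FPKM + 0.1) for Eif2ak2 (0.031). With a library left out the sign turned at least once for 16 members. Their ranges were -0.079 to 0.86 for Trim25, -0.26 to 1.11 for Rtp4, -0.16 to 0.21 for B2m, -0.94 to 0.55 for H2-K1 (0.41 without cHet_0), -0.91 to 2.40 for Ddx58 (-0.14 without cKO_1), -1.45 to 3.09 for Dhx58 (-0.63 without cHet_1), -1.50 to 2.79 for Zbp1 (-0.86 without cHet_1), -1.24 to 0.59 for Oas3, -0.13 to 0.082 for Eif2ak2 (0.023 without cHet_1), -0.47 to 0.13 for Xaf1 (0.033 without cHet_1), -0.96 to 0.29 for Parp9, -0.56 to 6.06 for Gbp3, -2.70 to 1.17 for Iigp1, -2.21 to 1.76 for Psmb9, -1.82 to 1.10 for Usp18 (1.04 without cKO_1) and -0.0030 to 0.95 for H2-D1.

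With the number in the column names as a replicate block, 0 members and 0 genes were called and the median stayed at 0.80. The deviations of same-numbered libraries correlated at 0.0486 across genes, and the numbers were not taken to pair the libraries. A single correlation over all genes cannot show whether same-numbered libraries share a batch. The class II, leukocyte and endothelial sums were higher in cKO_1 and cHet_1 than in cKO_0 and cHet_0, though single genes of these lists went the other way. Canx, a gene of another list, had an FPKM of 93.7 in cKO_0 and 100 in cHet_0, and of 28.6 in cKO_1 and 31.1 in cHet_1. Its scaled counts lay between 26236 and 33765. A shared batch was not tested.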
